A study of Homo sapiens with 12 samples.

Results

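The kinesin motor genes were described in RNA sequencing of MDA-MB-231, an established human cell line of triple-negative breast cancer, after treatment with TGFβ, with alisertib or with both. Genes were chosen by name alone, as every row of the count table whose symbol is KIF with a number and its letter, or KIFC1, KIFC2 or KIFC3, without pseudogenes or antisense genes. Such a name was carried by 42 of the 57773 genes, and 36 of these had at least 10 counts in at least 3 of the 12 libraries. Those 36 are described here, in classes by known role: 13 of 14 mitotic motors, 13 of 15 transport motors, 4 of 5 kinesins that act on microtubule dynamics, 3 of 4 linked to cilia or Hedgehog signalling, and 3 of 4 others. The family members CENPE and STARD9 do not carry KIF symbols and were not members.

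The 12 libraries fell into 4 groups of 3: cells given TGFβ together with alisertib (both, the combination), TGFβ alone, alisertib alone, and no treatment (untreated). Treatment lasted 48 h, and the sources used here do not give doses or a vehicle. TGFβ is a cytokine that acts on cells through its receptor kinases and SMAD factors, and alisertib is a small-molecule inhibitor of Aurora A, a kinase of the mitotic spindle poles. All groups were grown in the same medium with serum, and all were the same cell line, labelled with no introduced allele. The labels number the libraries 1 to 12 across the groups, and they do not say whether the 3 libraries of 1 group were separate cultures. The p-values therefore measure only the spread between these libraries, which may be technical.

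Kinesins bind microtubules through a conserved motor domain and use ATP to walk along them or to take their ends apart. Mitotic kinesins push spindle poles apart, align chromosomes and build the midzone at which the cell is cleaved, and their transcripts are made mainly late in the cell cycle of dividing cells. Transport kinesins carry vesicles, organelles and protein complexes, most of them outward along microtubules, often through light chains or adaptor proteins that hold the cargo.

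Total counts ran from 105921831 to 120619368 in the combination libraries, from 110282980 to 118220032 with TGFβ, from 97048328 to 105563951 with alisertib and from 93701658 to 100328721 in untreated cells. Levels between libraries are given as CPM, a gene's share of the reads of its library after TMM scaling, and levels between genes as the authors' RPKM, which also divides by gene length. The labelled cell type was checked against markers: VIM and CD44 stood at 1224 to 2133 and 1120 to 1903 CPM over the 12 libraries, and the luminal genes ESR1, PGR and FOXA1 had at most 6 counts in any library. The mesenchymal marker SPARC was low, at 0.205 to 1.08 CPM, while the other 4 of 7 luminal markers were present: KRT19 stood at 77.9 to 194.5 CPM, ERBB2 at 48.5 to 73.2 CPM, EPCAM at 12.7 to 19.7 CPM and GATA3 at 3.35 to 7.58 CPM. Of leukocyte markers, PTPRC and CD3E had at most 18 counts, CD14 stood at 0.639 to 2.9 CPM, and CD68 stood at 43.9 to 91.8 CPM. Libraries 1 (untreated), 6 (TGFβ), 9 (alisertib) and 10 (combination) stood apart: across 19649 genes, their deviations from their group mean correlated with gene GC content at Spearman rho -0.56 to -0.44, against 0.10 to 0.52 in the other 8. Counts of changed kinesins are therefore given with and without those 4 libraries, which leaves 2 per group. Deviations from the mean of 3 libraries balance out, so the opposite sign in the other 8 is partly built in. Because the kit does not mark strand, reads of overlapping genes cannot be told apart, which touches KIF20A (with BRD8 and CDC23), KIF18A (METTL15), KIF15 (TMEM42), KIF4A (PDZD11), KIF24 (UBAP1), KIF2A (DIMT1 and IPO11), KIF9 (KLHL18 and KIF9-AS1) and KIF7 (TICRR).

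In untreated cells the mitotic motors held 67.2 ± 0.081% of the summed RPKM of the family, and the transport motors 27.1 ± 0.33% (SD, n = 3). KIF2C, which takes microtubules apart at centromeres, stood highest at 61.4 ± 0.753 RPKM. It was followed by KIF20A, which carries the chromosomal passenger complex to the midzone, at 59.7 ± 4.21 RPKM, and these neighbours did not differ beyond their spread. KIF5B, the ubiquitous heavy chain of conventional kinesin, was the transport motor with the highest level, 55 ± 2.04 RPKM. KIFC1, a minus-end motor that bundles spindle microtubules, KIF11, which slides them apart, and KIF4A, a chromosome-bound motor that shortens the midzone, lay close together at 36.7 ± 3.64, 34.9 ± 2.47 and 34.5 ± 2.97 RPKM, within their spread. Below KIF23 at 30.1 ± 2.45, KIF3B at 24.3 ± 1.47 and KIF1C at 19.6 ± 1.93 RPKM, the mitotic motors KIF14, KIF15, KIF18A, KIF20B and KIF18B formed a run in which no neighbours differed beyond their spread. At the other end stood KIF12 at 0.0113 ± 0.00441 RPKM and KIF5A at 0.0134 ± 0.00446 RPKM.

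**Figure D1:**
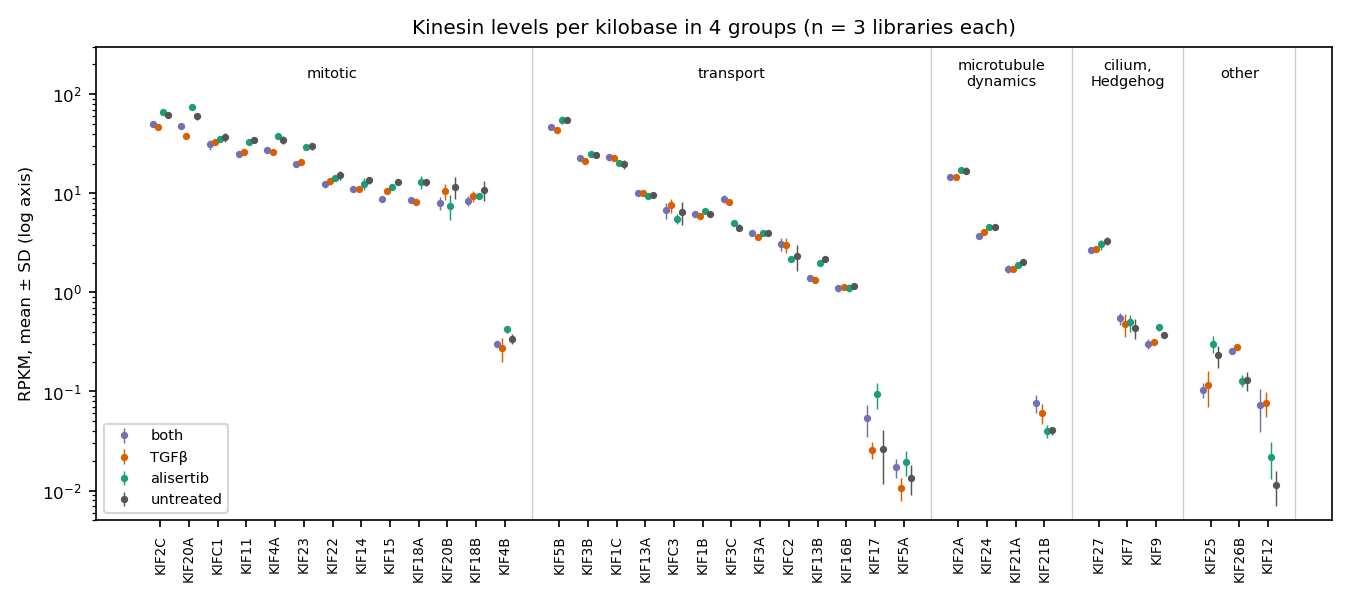
Mean RPKM on a log axis for the 36 described kinesins, ordered within each class by untreated level, with points for both agents, TGFβ, alisertib and no treatment and bars of 1 SD (n = 3 libraries each). KIF2C, KIF20A and KIF5B lie highest in untreated cells, with KIF2C at 61.4 RPKM, and KIF17, KIF5A and KIF12 lie at the bottom.

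The 6 members below the count rule were KIF1A and KIF5C, motors of neuronal transport, the depolymerase KIF2B, KIF6, KIF19 and KIF26A. Just inside the rule, KIF5A, the neuronal heavy chain, reached 10 counts in 7 of 12 libraries. Just outside it, its relative KIF5C reached 10 counts in 1 library and lay at 2 to 9 counts in the other 11. KIF19, KIF2B and KIF26A each had counts in 1 library only. KIF12 reached 10 counts in 7 libraries, none of them untreated, so it entered through the groups in which it was high, and its calls below are counted only to keep the totals whole. Of neuronal markers, RBFOX3 had 1 count or fewer, SNAP25 stood at 0.149 to 0.496 CPM and MAP2 at 0.178 to 2.42 CPM, while TUBB3 reached 7.69 to 24.8 CPM.

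Promoter sequence is shown for the 4 called mitotic motors with the lowest and the 2 called transport motors with the highest log2 fold change under TGFβ, because promoters of late cell cycle genes are known for short shared motifs near the start. The windows are RefSeq sequences of build GRCh38.p14, from 250 bases before to 50 after the start of the gene, read 5′ to 3′ on the strand of the gene. They are KIF18A at chr11:28108107-28108406 (minus strand), KIF20A at chr5:138178862-138179161 (plus), KIF23 at chr15:69414099-69414398 (plus), KIF11 at chr10:92592880-92593179 (plus), KIF3C at chr2:25982448-25982747 (minus) and KIF1C at chr17:4997700-4997999 (plus). Capitals mark matches on either strand to the motif TTTGAA, to its variant with the letters TTCGAA, or to the motif CCAAT. On the opposite strand the first reads TTCAAA, the variant reads as itself, and the last reads ATTGG.
KIF18A: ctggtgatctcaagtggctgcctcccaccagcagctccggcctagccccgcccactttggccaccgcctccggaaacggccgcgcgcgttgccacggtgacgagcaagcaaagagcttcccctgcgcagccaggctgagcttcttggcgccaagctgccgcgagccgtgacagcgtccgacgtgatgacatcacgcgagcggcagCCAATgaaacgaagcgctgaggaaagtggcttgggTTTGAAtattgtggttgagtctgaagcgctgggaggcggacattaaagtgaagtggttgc
KIF20A: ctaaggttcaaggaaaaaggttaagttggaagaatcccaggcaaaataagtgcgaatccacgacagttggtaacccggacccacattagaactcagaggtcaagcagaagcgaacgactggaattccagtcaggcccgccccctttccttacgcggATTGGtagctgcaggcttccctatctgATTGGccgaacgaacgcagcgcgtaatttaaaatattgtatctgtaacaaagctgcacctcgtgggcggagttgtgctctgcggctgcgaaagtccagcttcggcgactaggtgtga
KIF23: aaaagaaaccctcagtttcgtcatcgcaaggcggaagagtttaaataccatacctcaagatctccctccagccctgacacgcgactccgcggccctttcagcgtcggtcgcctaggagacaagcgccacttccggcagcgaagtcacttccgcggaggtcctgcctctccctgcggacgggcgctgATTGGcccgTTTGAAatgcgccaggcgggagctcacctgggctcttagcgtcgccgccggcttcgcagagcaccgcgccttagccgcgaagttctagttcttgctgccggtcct
KIF11: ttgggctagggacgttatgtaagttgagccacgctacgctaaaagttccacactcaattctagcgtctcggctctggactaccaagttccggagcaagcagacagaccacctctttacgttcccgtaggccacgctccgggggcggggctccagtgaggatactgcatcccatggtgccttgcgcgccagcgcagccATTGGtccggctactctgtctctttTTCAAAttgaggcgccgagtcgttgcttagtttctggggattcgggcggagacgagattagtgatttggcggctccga
KIF3C: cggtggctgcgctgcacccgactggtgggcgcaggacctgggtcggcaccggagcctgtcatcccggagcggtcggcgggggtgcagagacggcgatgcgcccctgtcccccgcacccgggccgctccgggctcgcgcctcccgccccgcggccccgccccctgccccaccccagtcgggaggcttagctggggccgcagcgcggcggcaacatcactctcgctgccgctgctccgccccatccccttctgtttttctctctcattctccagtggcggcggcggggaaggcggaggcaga
KIF1C: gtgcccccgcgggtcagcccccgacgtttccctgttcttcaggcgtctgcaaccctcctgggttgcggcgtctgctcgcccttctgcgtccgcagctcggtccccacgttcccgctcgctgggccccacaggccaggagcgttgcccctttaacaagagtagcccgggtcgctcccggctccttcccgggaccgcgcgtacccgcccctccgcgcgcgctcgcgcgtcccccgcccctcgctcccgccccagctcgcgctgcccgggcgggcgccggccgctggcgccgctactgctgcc

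TTTGAA and TTCGAA are the core letters of the cell cycle genes homology region, an element of many late cell cycle promoters, and CCAAT is the core of the NF-Y box that often lies upstream of it. In KIF18A, TTTGAA began 10 bases and CCAAT 45 bases before the start. KIF23 carried TTTGAA 55 bases before the start, with an opposite-strand CCAAT at 64. In KIF11 both motifs lay on the opposite strand, TTTGAA at 28 and CCAAT at 53 bases before the start. KIF20A had no TTTGAA or TTCGAA in this window and 2 opposite-strand CCAAT, at 94 and 67 bases before the start. Neither motif occurred in the windows of KIF3C or KIF1C. In none of these 6 windows did matches overlap one another.

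The RefSeq table held a window for 34 of the 42 members. TTTGAA or TTCGAA occurred in 11 of 13 mitotic motors described (84.6%), all but KIF20A and KIF2C, against 1 of 9 transport motors described (11.1%), which was KIF5B, and 19.5% of 27305 genes. CCAAT occurred in 84.6% of the mitotic motors, 33.3% of the transport motors and 39.7% of all genes. Both together were found in 10 of 13 mitotic motors (76.9%) and in 7.85% of all genes. These are counts of letters in a window of fixed size and say nothing about binding.

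With TGFβ alone many of the mitotic motors fell. Against untreated cells 16 of the 36 kinesins were called changed at an adjusted p under 0.05, 6 higher and 10 lower, where 38.6% of all tested genes were called (quasi-likelihood test of edgeR, Benjamini-Hochberg adjusted over 20571 genes). The share of the family that changed was thus near the background, and so was the share called higher, beside 18.5% of all genes. By class, of the 13 mitotic motors 7 were lower, 0 higher and 6 not called, where 20.1% of all genes were called lower. Of the 13 transport motors 3 were higher, 2 lower and 8 not called, where 18.5% of all genes were called higher. The median log2 fold change was -0.24 over the mitotic motors, 0.05 over the transport motors and -0.01 over all tested genes. Without libraries 1, 6, 9 and 10 the counts were 9 mitotic motors lower and 0 higher, and 5 transport motors higher and 2 lower, with 45.3% of all genes called (23.7% higher, 21.7% lower). A correction for GC content and gene length (the GC offset) gave 10 mitotic motors lower and 0 higher, with 46.5% of all genes called (23.4% higher, 23.1% lower). With a term for libraries 1, 6, 9 and 10 in the fit, an alternative chosen after seeing the data, 23 kinesins were called, where 51.2% of all genes were (26% higher, 25.2% lower). That fit added KIF22, KIF2A, KIF21A, KIF27 and KIF3B as lower and KIFC2 and KIFC3 as higher. In bulk RNA, fewer cells of a type and less RNA per cell cannot be told apart.

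The summed CPM of the mitotic motors was 1314 to 1362 over the TGFβ libraries and 1624 to 1693 over the untreated libraries, 19.5% lower in the mean. Their share of the family's RPKM was 62.4 ± 0.23% with TGFβ and 67.2 ± 0.081% in untreated cells (SD, n = 3). Genes that mark cells in G2 and mitosis moved the same way: 17 of 18 were called lower with TGFβ, where 20.1% of all genes were. They were led by AURKA at -0.71 ± 0.06, CCNA2 at -0.68 ± 0.07, ANLN at -0.61 ± 0.06 and BUB1 at -0.53 ± 0.06 (log2 fold change ± SE). The summed CPM of that list was 4748 to 4885 with TGFβ and 6234 to 6822 in untreated cells. Of 16 S phase genes 9 were called lower and 1, CCNE1, higher, where 20.1% of all genes were called lower and 18.5% higher. Their sum was 2032 to 2085 CPM with TGFβ and 2363 to 2513 CPM in untreated cells. The part of cell cycle composition in the fall of the motors was not tested.

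KIF2C had 195, 196 and 195 CPM with TGFβ, against 245, 245 and 236 CPM in untreated cells. The libraries of each group lay close together and the groups did not overlap. Its log2 fold change was -0.31 ± 0.04 (SE), 1.24-fold lower with TGFβ (adjusted p = 2.1e-05, edgeR quasi-likelihood). KIF20A had 171, 175 and 173 CPM with TGFβ, against 278, 249.9 and 236 CPM in untreated cells. Every TGFβ library lay well below every untreated library, and the fall by 1.47-fold (-0.56 ± 0.06, adjusted p = 2.2e-06) had the lowest adjusted p of the mitotic motors. KIF11, the spindle-sliding motor, stood at 145, 142 and 152 CPM with TGFβ and 199.6, 171 and 178 CPM without treatment. It was 1.25-fold lower (-0.32 ± 0.07, adjusted p = 0.0016), again with no overlap.

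KIF4A, the chromosome-bound motor, had 142, 139 and 146 CPM with TGFβ, against 195, 169.9 and 162 CPM in untreated cells, 1.24-fold lower (-0.31 ± 0.06, adjusted p = 0.0012). KIF23, the motor subunit of centralspindlin, which bundles the midzone, had 152, 146 and 151 CPM with TGFβ and 229, 194 and 197 CPM in untreated cells. It was 1.38-fold lower (-0.46 ± 0.07, adjusted p = 6.2e-05), and the highest TGFβ library lay below the lowest untreated one. KIF15, which backs up KIF11 in holding the poles apart, stood at 62.5, 62.4 and 64.2 CPM with TGFβ and 81.6, 71.2 and 70.8 CPM in untreated cells. Its fall was smaller, -0.24 ± 0.06 (adjusted p = 0.0056), though without overlap, and was -0.15 with the GC offset. KIF18A, which damps the movements of chromosomes at the metaphase plate, had 44.2, 41 and 44.6 CPM with TGFβ and 67.2, 59.7 and 67.8 CPM in untreated cells. This was the lowest log2 fold change of the class, -0.58 ± 0.09, or 1.5-fold lower (adjusted p = 0.00011).

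The 6 mitotic motors not called with TGFβ were KIF14, KIF18B, KIF20B, KIF22, KIF4B and KIFC1, with log2 fold changes from -0.24 for KIF4B to -0.06 for KIF20B. KIF14, which works with citron kinase in cytokinesis, was the nearest to the threshold (adjusted p = 0.074), and its groups did not overlap. KIF22, a chromosome-bound motor, was at -0.12 ± 0.08, and KIF18B, which limits astral microtubules, at -0.12 ± 0.14. With the GC offset KIF22 and KIF18B were called lower at -0.32 and -0.29 (adjusted p = 1.3e-06 and 0.00073), and so was KIFC1 at -0.22 (adjusted p = 1.4e-05). Without libraries 1, 6, 9 and 10, KIF22 and KIF18B were also called lower, at -0.13 and -0.19 (adjusted p = 0.011 and 0.0018). With all libraries and no offset KIFC1 stood at -0.06 ± 0.08 and KIF20B, a motor of late cytokinesis, at -0.06 ± 0.20. KIF4B, a near-identical copy of KIF4A whose counts may be shared with it, was at -0.24 ± 0.18. All 13 mitotic motors had a log2 fold change below 0, as they did under both other scalings (size factors of DESeq2 and the GC offset). KIF20B was above 0 without TGFβ library 5, TGFβ library 6 or untreated library 3, and KIF18B without untreated library 3.

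**Figure D2:**
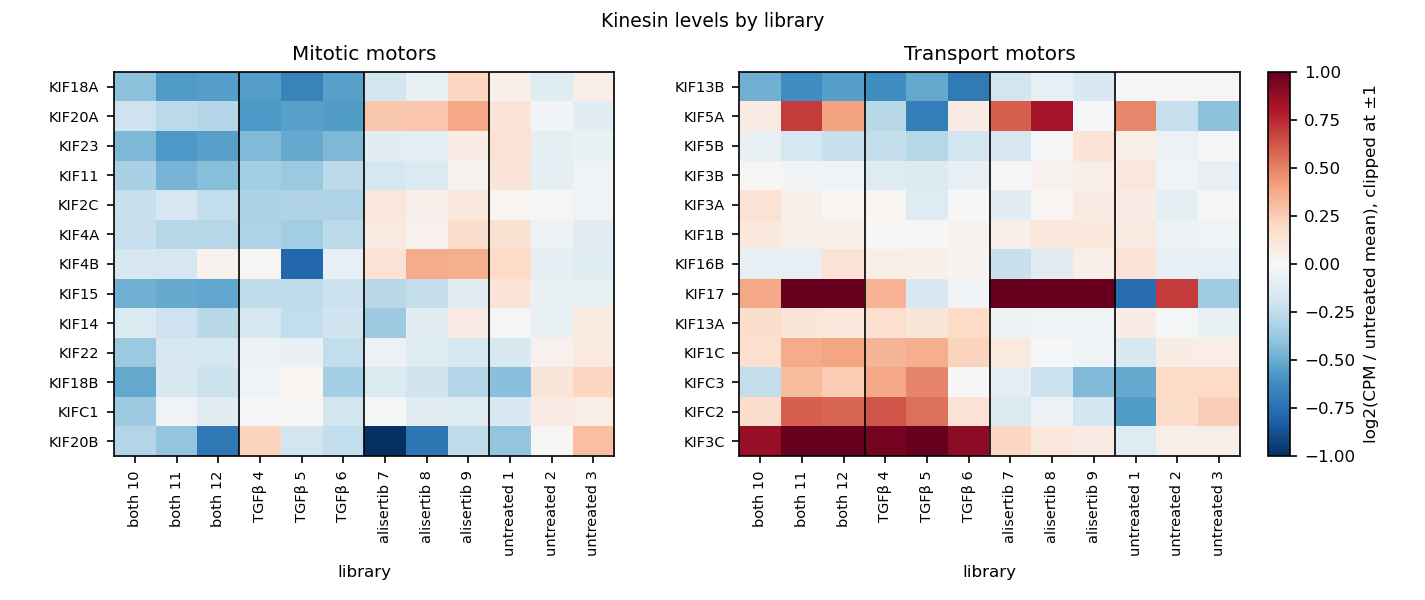
Log2 ratio of CPM to the untreated mean for 13 mitotic motors (left) and 13 transport motors (right), 1 column per library in the order both, TGFβ, alisertib, untreated, with colours clipped at 1 and -1. KIF18A, KIF20A, KIF23 and KIF11 are blue in all 6 libraries that had TGFβ, and KIF3C is red in the same 6.

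Partners of the mitotic motors fell as well. Of 11 genes listed as partners 8 were called lower with TGFβ and 0 higher, where 20.1% of all genes were called lower and 18.5% higher. Their median log2 fold change was -0.40 beside -0.01 over all genes. HMMR, which ties spindle microtubules to the poles, was lowest at -0.74 ± 0.08. ECT2, the exchange factor that starts the cleavage furrow, stood at -0.61 ± 0.06, RACGAP1, the other subunit of centralspindlin, at -0.56 ± 0.06, and PRC1, the midzone bundler that binds KIF4A, at -0.47 ± 0.05.

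Among the transport motors KIF3C, a subunit of heterotrimeric kinesin, rose most. KIF3C had 60.2, 62 and 57.7 CPM with TGFβ, against 28.4, 32.5 and 32.3 CPM in untreated cells. The lowest TGFβ library lay far above the highest untreated library, and the rise was 1.93-fold (0.95 ± 0.08, adjusted p = 1.4e-07, edgeR quasi-likelihood). The related motor subunits KIF3A and KIF3B were not called: KIF3A was at -0.03 ± 0.07 and KIF3B at -0.11 ± 0.05. KIFAP3, the adaptor subunit of heterotrimeric kinesin, rose 2.18-fold (1.12 ± 0.06, adjusted p = 2.2e-09). KIF1C, a carrier of vesicles to the cell edge, had 229, 232 and 210.3 CPM with TGFβ, against 162, 191 and 189 CPM in untreated cells. The groups did not overlap, and the rise was 1.24-fold (0.31 ± 0.07, adjusted p = 0.004). KIF13A, which moves recycling endosomes, rose by 0.16 ± 0.04 on the log2 scale (adjusted p = 0.01).

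KIF13B, a relative of KIF13A, went the other way. It had 16.9, 18.3 and 15.9 CPM with TGFβ, against 25.7, 26.1 and 26.2 CPM in untreated cells, a 1.53-fold fall (-0.61 ± 0.07, adjusted p = 3.2e-06) without overlap. KIF5B fell by a smaller amount, -0.24 ± 0.07 (adjusted p = 0.012), and was no longer called without TGFβ library 5 (adjusted p = 0.055); with the GC offset it was at -0.15. The 8 transport motors not called ranged from -0.24 for KIF5A to 0.45 for KIFC2 and include KIF1B, KIF16B, KIF17 and KIFC3. KIFC2 and KIFC3, minus-end motors, were at 0.45 ± 0.18 and 0.31 ± 0.19, and their untreated libraries were spread widely (7.58, 12.7 and 13.3 CPM for KIFC2). Without libraries 1, 6, 9 and 10 both were called higher, at 0.37 and 0.24 (adjusted p = 6.4e-05 and 0.00012, edgeR quasi-likelihood). DESeq2 called KIFC2 higher (adjusted p = 0.024) and not KIFC3, and with the GC offset neither was called. KIF16B, a motor of early endosomes, stood at 0.05 ± 0.10 and KIF1B, which carries mitochondria and vesicle precursors, at 0.01 ± 0.05.

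Of 15 light chains and cargo adaptors of the transport motors, 8 were called higher and 2 lower with TGFβ, where 18.5% of all genes were called higher and 20.1% lower. Their median log2 fold change was 0.29 beside -0.01 over all genes. MAPK8IP2, a scaffold that links kinesin to JNK signalling, stood at 1.64 ± 0.54, its relative MAPK8IP3 at 1.19 ± 0.19, KIFAP3 at 1.12 ± 0.06 and the light chain KLC4 at 1.09 ± 0.14. With alisertib 0 of these 15 were called in either direction, where 6.74% of all genes were called. MAPK8IP2 stood at 1.63 ± 0.54 with alisertib (adjusted p = 0.093), about the same log2 fold change as with TGFβ.

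The remaining classes were small. KIF26B, an atypical kinesin linked to Wnt signalling and cell migration, had 4.37, 4.97 and 4.43 CPM with TGFβ, against 1.74, 1.81 and 2.48 CPM in untreated cells. Its levels were low but the groups lay far apart, and the rise was 2.28-fold (1.19 ± 0.14, adjusted p = 7e-06). KIF21B, which pauses microtubule growth, had 0.694, 0.787 and 1.05 CPM with TGFβ and 0.496, 0.581 and 0.508 CPM in untreated cells. The call of its rise of 0.67 ± 0.22 (adjusted p = 0.024) was lost on leaving out untreated library 1 or 3 or TGFβ library 6 (adjusted p = 0.066, 0.067 and 0.12). It was also lost with the GC offset and without the 4 libraries that stood apart, where the log2 fold change was 0.44. KIF25 had 0.291, 0.544 and 0.28 CPM with TGFβ and 0.507, 0.804 and 0.772 CPM in untreated cells, and these groups overlapped. It was called lower (-0.91 ± 0.29, adjusted p = 0.022), but not without untreated library 2 or 3 or TGFβ library 4 or 6 (adjusted p = 0.068 to 0.091). Nor was it called with only the compared groups fitted. KIF12 had 19, 32 and 35 counts in the TGFβ libraries, against 2, 5 and 4 in the untreated libraries. The microtubule depolymerases KIF2A and KIF24 (-0.14 and -0.10), KIF21A (-0.15) and the cilium and Hedgehog kinesins KIF27, KIF9 and KIF7 (-0.19, -0.14 and 0.20) were not called.

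**Figure D3:**
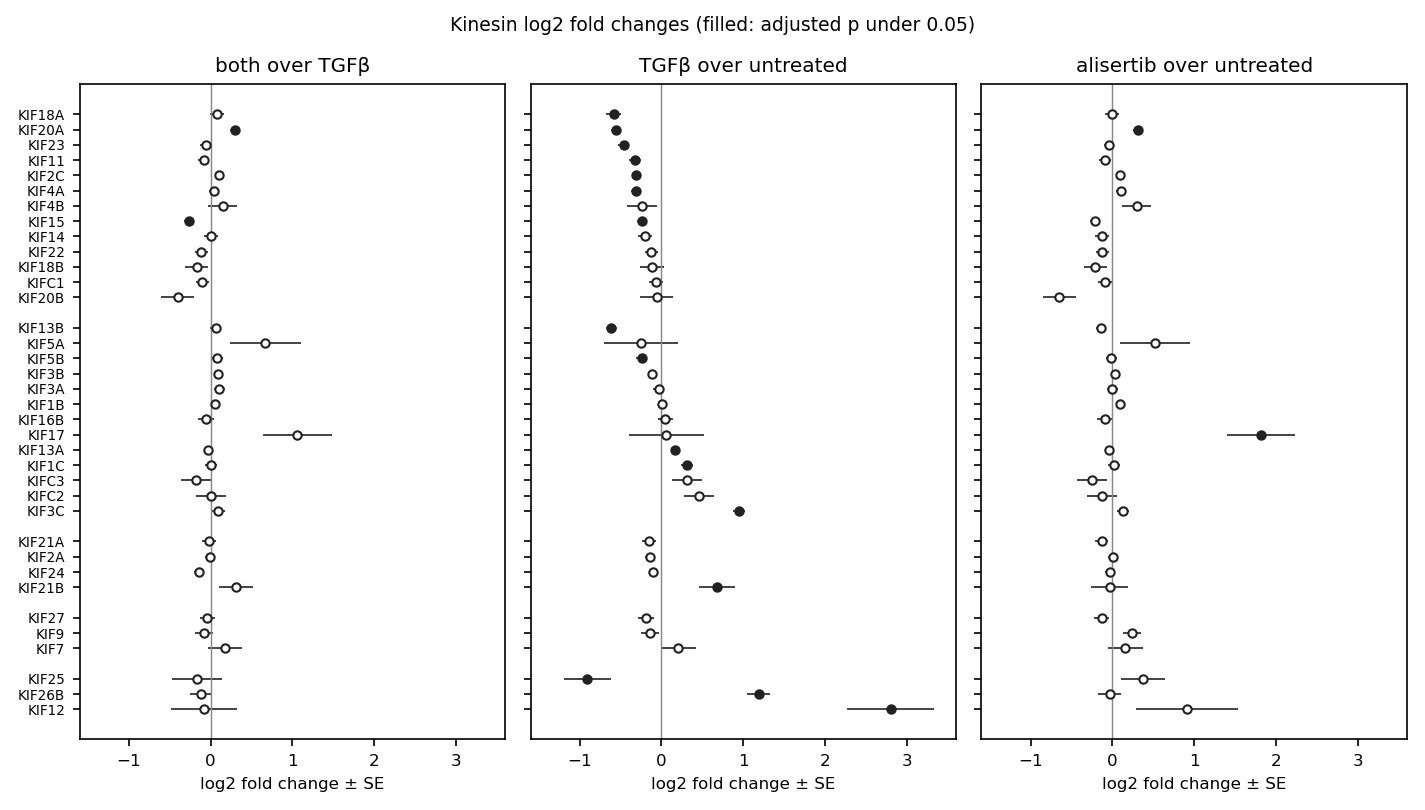
Log2 fold change ± SE of the 36 kinesins, grouped by class from mitotic motors at the top, for both agents over TGFβ, TGFβ over untreated and alisertib over untreated, with filled points at an adjusted p under 0.05. With TGFβ all 13 mitotic motors lie left of 0 and KIF3C, KIF26B and KIF12 lie furthest right, and the alisertib panels hold few filled points. KIF12 met the count rule only through treated libraries.

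With alisertib alone KIF20A and KIF17 rose. They were the 2 of 36 kinesins called against untreated cells, where 6.74% of all tested genes were called, 3.55% higher and 3.19% lower (edgeR, Benjamini-Hochberg adjusted). The share of the family that changed was near the background here too. The median log2 fold change was -0.09 over the mitotic motors and 0.00 over the transport motors. The summed CPM of the mitotic motors was 1603 to 1757 with alisertib and 1624 to 1693 in untreated cells. S phase genes were lower, 10 of 16 called, with a sum of 1924 to 2050.4 CPM with alisertib and 2363 to 2513 CPM in untreated cells, and of 18 G2 and mitosis genes 2 were called higher and 0 lower.

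KIF20A had 307, 309 and 333 CPM with alisertib, against 278, 249.9 and 236 CPM in untreated cells. All 3 alisertib libraries lay above all 3 untreated ones, and the rise was 1.24-fold (0.31 ± 0.06, adjusted p = 0.0046). KIF17, a motor of cilia and dendrites, had 54, 57 and 30 counts with alisertib, against 7, 21 and 10 counts in untreated cells, which is 0.494, 0.543 and 0.3 CPM against 0.0739, 0.203 and 0.0977 CPM. The groups did not overlap at this low depth, and the log2 fold change was 1.82 ± 0.41 (adjusted p = 0.018). The call was lost without alisertib library 7 (adjusted p = 0.069), alisertib library 8 (adjusted p = 0.077) or untreated library 3 (adjusted p = 0.081), so that 1 kinesin was called in each of these fits. Over all genes these fits called 718 of 21033, 723 of 21035 and 731 of 21058.

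The number of calls with alisertib rested on which libraries entered. Without untreated library 1 the count was 4, where 2598 of 21061 genes were called. It was also 4 without alisertib library 9, where 823 of 21068 genes were called. Without libraries 1, 6, 9 and 10 together the count was 12, where 24.5% of all genes were called (11% higher, 13.5% lower). Among those 12, KIF20A, KIF2C, KIF4A, KIF17 and KIF1B were higher, and KIF15, KIF18B, KIF20B, KIF22, KIFC1, KIFC2 and KIFC3 lower. With the GC offset 5 were called (KIF20A, KIF17, KIF1B and KIF3C higher, KIF15 lower), where 17.5% of all genes were called (9.73% higher, 7.73% lower). With a term for libraries 1, 6, 9 and 10, 8 were called (KIF20A, KIF4A, KIF17, KIF1B and KIF3C higher, KIF15, KIF22 and KIFC3 lower), where 19.7% of all genes were called (8.85% higher, 10.9% lower). KIF15 had 61.6, 63.1 and 68.8 CPM with alisertib and 81.6, 71.2 and 70.8 CPM in untreated cells, without overlap, and missed the threshold with all libraries (-0.21 ± 0.06, adjusted p = 0.056). KIF20B had 42.2, 53.9 and 74.5 CPM with alisertib and 67.6, 89.9 and 109.6 CPM in untreated cells, overlapping groups with wide spread, and was not called (-0.65 ± 0.20, adjusted p = 0.078).

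KIF20A was also higher when alisertib was given on top of TGFβ. Between cells given both agents and cells given TGFβ alone, 2 of 36 kinesins were called, KIF20A higher and KIF15 lower, where 2.08% of all tested genes were called (1.19% higher, 0.89% lower). KIF20A had 221, 211 and 208 CPM with both agents, against 171, 175 and 173 CPM with TGFβ alone. The groups did not overlap, and the difference was 0.30 ± 0.06 (adjusted p = 0.014, edgeR quasi-likelihood), beside 0.31 ± 0.06 for alisertib over untreated. These contrasts share no library. KIF15 had 53.4, 52.5 and 51.9 CPM with both agents, against 62.5, 62.4 and 64.2 CPM with TGFβ alone, also without overlap (-0.26 ± 0.06, adjusted p = 0.04). The KIF20A call was lost without any 1 of the 3 TGFβ libraries or without combination library 10 (adjusted p = 0.053 to 0.084). The KIF15 call was lost without any 1 of the TGFβ or combination libraries or without alisertib library 8 (adjusted p = 0.069 to 0.14). The count was therefore 0 without TGFβ library 4, 5 or 6 or combination library 10, and 1 without alisertib library 8 or combination library 11 or 12. Over all genes these fits called from 153 of 21060 (without TGFβ library 4) to 301 of 21035 (without alisertib library 8). Without libraries 1, 6, 9 and 10 it was 5, adding KIF3C higher and KIF18B and KIFC3 lower, where 6.92% of all genes were called (3.3% higher, 3.63% lower). With the GC offset it was 4, adding KIF2C and KIF3C higher, where 8.15% were called (4.36% higher, 3.79% lower).

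The test of whether the alisertib difference was itself different with and without TGFβ called no kinesin. This interaction called 0 of 36 members by edgeR, where 0.282% of all genes were called. By DESeq2 it called 0 members, where 179 of 20571 genes were called. By edgeR 1 member, KIF13B, had an unadjusted p under 0.05 (0.20 ± 0.09, unadjusted p = 0.048). Without libraries 1, 6, 9 and 10 the interaction called 0 members, where 3.59% of all genes were called. For KIF20A the interaction was -0.01 ± 0.08 on the log2 scale, and for KIF15 -0.05 ± 0.09.

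Cells given both agents had less of many mitotic motors than untreated cells. Against untreated cells 18 of 36 kinesins were called, 7 higher and 11 lower, where 39.7% of all tested genes were called (19.4% higher, 20.3% lower). Without libraries 1, 6, 9 and 10 the count was 27, with 10 mitotic motors lower and 0 higher, where 47.4% of all genes were called (24.7% higher, 22.7% lower). Of the mitotic motors 8 of 13 were lower and 0 higher, with a median of -0.27, and of the transport motors 4 were higher and 1 lower, with a median of 0.13. The mitotic share of the family's RPKM was 62.1 ± 0.14% with both agents and 67.2 ± 0.081% in untreated cells. The summed CPM of G2 and mitosis genes was 4727 to 5031 with both agents and 6234 to 6822 in untreated cells, and that of S phase genes 1602 to 1629.6 with both agents and 2363 to 2513 in untreated cells. KIF22 (-0.23 ± 0.08, adjusted p = 0.026) and KIF24 (-0.25 ± 0.06, adjusted p = 0.0025) were called lower here. KIF22 lost its call without combination library 10 or untreated library 2 or 3 (adjusted p = 0.11, 0.072 and 0.12), and with only the compared groups fitted. It was at -0.40 with the GC offset. KIF15 was 1.42-fold lower with both agents than in untreated cells (-0.50 ± 0.06, adjusted p = 1.1e-05), beside -0.24 ± 0.06 for TGFβ alone and -0.21 ± 0.06 for alisertib alone, contrasts that share the untreated libraries. KIF20A with both agents lay between its levels with TGFβ and in untreated cells (-0.26 ± 0.06 over untreated, adjusted p = 0.0024). KIF3C was 2.06-fold higher with both agents than in untreated cells, at 56.8, 66.7 and 68.9 CPM. KIF17 was called higher with both agents over untreated (1.12 ± 0.42, adjusted p = 0.049), on 17, 39 and 35 counts. That call was lost on leaving out any 1 library but untreated 2, alisertib 9 or combination 10 (highest adjusted p = 0.18, without combination library 11). It was also lost with the GC offset, without a filter on low counts and with only the compared groups fitted. The call of KIF13A (0.13 ± 0.04) was lost without untreated library 2 or 3 or any 1 of the combination libraries (adjusted p = 0.051 to 0.091). It was also lost without a filter on low counts and with only the compared groups fitted. With the GC offset KIF13A was at 0.20.

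The comparison of both agents with alisertib alone shares no library with that of TGFβ with untreated cells. It called 18 of 36 kinesins, 7 higher and 11 lower, where 38.4% of all tested genes were called (19.4% higher, 19% lower). Without libraries 1, 6, 9 and 10 it called 21, where 48.8% of all genes were called (25.7% higher, 23.1% lower). The 7 mitotic motors called lower were the same 7 in both comparisons. Over the family, 9 genes were called lower in both, of 11 lower with both agents over alisertib and 10 lower with TGFβ over untreated. For the higher calls 6 were shared, of 7 with both agents over alisertib and 6 with TGFβ over untreated. They included KIF12, which entered through the groups in which it was high. The share of all genes called in both comparisons was not counted, so this sharing has no background beside it. KIF18A stood at 48.8, 43.9 and 44.4 CPM with both agents and 57, 61.8 and 75.4 CPM with alisertib (-0.50 ± 0.09, adjusted p = 0.00047). KIF3C stood at 56.8, 66.7 and 68.9 CPM with both agents and 35.8, 33.5 and 32.9 CPM with alisertib (0.91 ± 0.08, adjusted p = 2.5e-07). KIF13B had 18.6, 16.9 and 17.7 CPM with both agents and 22.7, 24.7 and 23.5 CPM with alisertib, with no overlap (-0.41 ± 0.07, adjusted p = 0.00017). KIF26B had 4.35, 4.05 and 4.24 CPM with both agents and 1.94, 2.24 and 1.73 CPM with alisertib, also without overlap (2.14-fold higher, adjusted p = 1.8e-05). KIF9, a kinesin of motile cilia, was called lower with both agents than with alisertib (-0.46 ± 0.11, adjusted p = 0.0046). KIFC2 was called higher (0.59 ± 0.18, adjusted p = 0.019), but not without alisertib library 7 or 9 or combination library 11 or 12 (adjusted p = 0.059 to 0.082). Nor was it called without a filter on low counts or with the GC offset, where it was at 0.10.

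**Figure D4:**
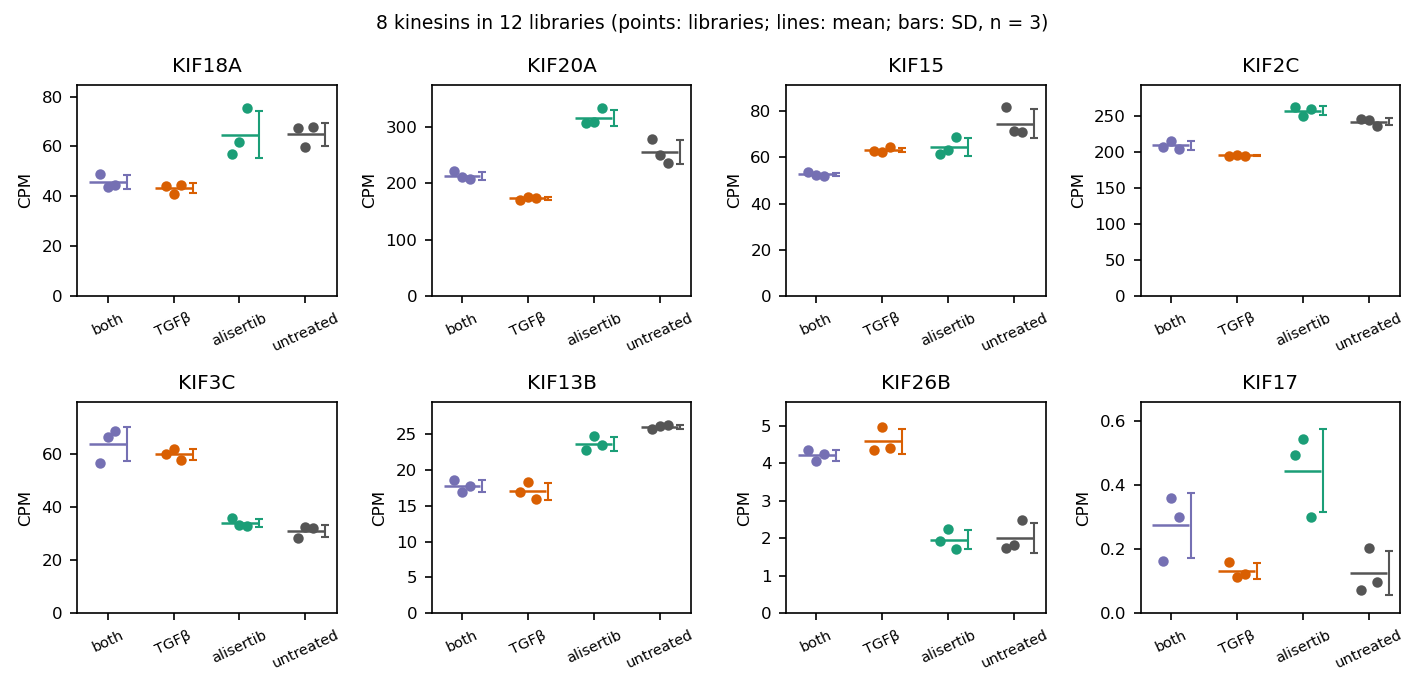
CPM in every library of KIF18A, KIF20A, KIF15, KIF2C, KIF3C, KIF13B, KIF26B and KIF17, with both agents, TGFβ, alisertib and no treatment from left to right, lines at group means and bars of 1 SD (n = 3). KIF20A is highest with alisertib and lowest with TGFβ, KIF15 is lowest with both agents, and KIF17 is highest with alisertib at under 0.6 CPM.

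Set side by side, the mitotic minus the transport median log2 fold change was -0.40 for both agents over untreated, -0.37 for both over alisertib, -0.12 for both over TGFβ, -0.29 for TGFβ over untreated and -0.09 for alisertib over untreated. Contrasts with a group in common share its libraries. The mitotic motors had a median GC content of 45.7%, the transport motors 51.4% and all tested genes 48.2%, and over all genes the log2 fold change with TGFβ rose with GC content (Spearman rho 0.24 across genes, which are not independent replicates). With the GC and length offset the mitotic median with TGFβ was -0.25 and the transport median 0.05, beside -0.24 and 0.05 without it.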

How the data were processed

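RNA was sequenced from 12 libraries made with a TruSeq RNA v2 kit, per the labels' protocols. The submitters' processing notes name build hg19, featureCounts, Subread, TopHat and bcl2fastq, without versions. In the deposited file the authors gave raw counts for each gene and RPKM values; RPKM denominators were 1.1 to 1.11 times the library totals. All columns carrying per-sample values were matched to samples by name. Counts as deposited were fitted with edgeR 4.0.16 in R 4.3.3: filterByExpr, TMM scaling, 1 robust quasi-likelihood fit of all 12 libraries with 8 residual degrees of freedom, Benjamini-Hochberg adjustment over 20571 genes and a threshold of 0.05. Each SE is the log2 fold change over the root of F. The script was tested on simulated counts. Alternatives were DESeq2 1.42.0, its size factors, other filters, a GC and length offset, the compared groups alone, libraries left out, and a term for libraries 1, 6, 9 and 10 that was added after seeing the data. The members and lists were chosen with earlier results of these data known. Named genes were members called in a comparison, and up to 4 genes per list with the largest change under TGFβ; KIF22, KIF24 and KIF9 in the later comparisons, and the motors that missed the threshold, were named to account for every member.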

Additional observations from a re-analysis of the deposited data

How the results depend on the processing

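No called kinesin changed sign under the alternatives run, and no mitotic minus transport median did. Of 56 calls of members over the comparisons, 46 held in every alternative and 10 were lost in at least 1. The cause was not tested. The share of all genes' calls that held was not counted, so these numbers have no background beside them. The calls with alisertib over untreated numbered 2, where 6.74% of all genes were called, and 5 with the GC and length offset (17.5%). They numbered 12 without libraries 1, 6, 9 and 10 (24.5%). With a term for those libraries, chosen after seeing the data, they numbered 8 (19.7%), and with 1 library left out 1 to 4. Between both agents and TGFβ alone the count was 2 (2.08% of all genes) and 4 with the GC and length offset (8.15%). It was 5 without libraries 1, 6, 9 and 10 (6.92%), and 0 to 2 with 1 library left out. With 1 library left out, the other counts were 15 to 17 (TGFβ over untreated), 16 to 22 (both over untreated), 17 to 19 (both over alisertib) and 0 (interaction). Over all genes these fits called 6511 to 8018, 6680 to 8114, 6239 to 8984 and 19 to 166, of 21011 to 21072 tested. For alisertib over untreated they called 718 to 2598 genes, and for both over TGFβ 153 to 754. The largest shift of the all-gene median from its reported value by any setting was 0.022 on the log2 scale. Genes under about 10 counts, such as KIF5A and KIF12, carry little precision. No paired analysis was possible because the labels share no library number between groups. With the term for libraries 1, 6, 9 and 10 all 56 calls remained, but that fit called more of all genes. It called 51.2% beside 38.6% for TGFβ over untreated, and 19.7% beside 6.74% for alisertib over untreated. How many of all genes' calls remained was not counted.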

Other observations

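Cytoplasmic dynein, the motor that moves cargo opposite to most kinesins, had subunits that moved in both directions with TGFβ. Of 20 subunits and cofactors of dynein and dynactin 6 were called higher and 5 lower with TGFβ, where 18.5% of all genes were called higher and 20.1% lower, with a median log2 fold change of 0.03 beside -0.01 over all genes (edgeR quasi-likelihood test). DYNC1I1, an intermediate chain, stood at 2.14 ± 0.37, the light chain DYNLT3 at 0.53 ± 0.07, DCTN1, the large subunit of dynactin, at 0.24 ± 0.09, and DCTN6 at -0.24 ± 0.08 with overlapping groups. With alisertib 0 of the 20 were called, where 6.74% of all genes were. Of the kinesins without a KIF symbol, CENPE, a motor of the kinetochore, was at -0.04 ± 0.23 with TGFβ and -0.45 ± 0.23 with alisertib, neither called. STARD9, a motor of the pericentriolar material, was called lower with alisertib (-0.30 ± 0.06, adjusted p = 0.0067) and not with TGFβ (-0.03 ± 0.06).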
